A study of Homo sapiens with 18 samples.

Results

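The genes described here are 29 that build the lipid-linked precursor of N-glycans and the activated sugars it is made from, taken by name from a set list and found as 29 of the 25435 gene rows of the count table. RNA was sequenced from HEK293doxERN2, a human embryonic kidney line carrying a doxycycline-inducible transgene for FLAG-tagged ERN2. ERN2 (IRE1β) is an endoplasmic reticulum (ER) stress sensor that is normally made by mucus-secreting epithelium. The cells of all groups carried the transgene and were kept for 24 hours without doxycycline (no ERN2), at 10 ng/mL (low ERN2) or at 100 ng/mL (high ERN2). They then received 200 nM thapsigargin, which empties ER calcium stores and causes ER stress, or the vehicle DMSO for 3 hours. Vehicle-treated cells are called control cells and thapsigargin-treated cells stressed cells. Each of the 6 groups had 3 libraries, 18 in all. Doxycycline and ERN2 induction cannot be told apart, because no treated group lacked the transgene.

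N-linked glycosylation begins on dolichol phosphate, a long lipid anchored in the ER membrane. On the cytosolic face, enzymes add N-acetylglucosamine from UDP-GlcNAc and mannose from GDP-mannose. The glycan is then flipped to the lumenal face, where further mannose and glucose are added from dolichol-linked donors, and the finished oligosaccharide is passed to new proteins. IRE1-type sensors cut XBP1 mRNA to produce the XBP1 transcription factor, and they can also degrade other mRNAs at the ER. Several genes of this pathway are known targets of the unfolded protein response.

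The labels were checked on ERN2 itself, which was 6.57 to 9.10 CPM (read counts scaled to each library's total) in uninduced control libraries, 22.5 to 55.9 in low ERN2 control libraries and 249 to 309 in high ERN2 control libraries. In stressed libraries ERN2 was at 14.2, 10.4 and 12.0 CPM without doxycycline and 32.1, 53.9 and 112 CPM at the low dose. At the high dose stressed libraries held 272, 175 and 175 CPM, so replicates 2 and 3 lay below all high ERN2 controls. XBP1 rose from 75.4 to 78.0 CPM in uninduced control libraries to 464 to 494 CPM with thapsigargin. HSPA5 (BiP, the main ER chaperone) rose with thapsigargin from 468 to 536 CPM to 3046 to 4773 CPM. Library totals ran from 14876416 to 24652240 reads. The 8 colon epithelial markers CDH17, CDX1, FABP1, KRT20, VIL1, MUC2, GPA33 and SPINK4 never exceeded 5 reads in a library, although a protocol label names colon crypt cells. CDX2 reached 8.83 CPM and LGR5 35.5 CPM. The kidney line markers were all expressed, with PAX2 the lowest at 1.20 to 4.35 CPM. The sum of the 29 genes was 1265 to 1433 CPM in uninduced control libraries and 1562 to 1626 CPM in high ERN2 control libraries. It was highest in replicate 2 of the uninduced stressed group (2012 CPM) and of the low ERN2 stressed group (2101 CPM), against 1553 to 1699 CPM in the other libraries of both groups.

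The promoters of 28 of the 29 genes were matched in RefSeq (GRCh38.p14, from 250 bases before to 50 after the start). The stretches shown here surround the letters that XBP1 and related factors are known to recognise, in genes whose levels are described further on. Capitals mark GCCACGT (or its reverse complement), TGACGTGG, or CCAAT followed 9 bases later by CCACG, which is the ER stress response element. Both strands were searched, and the start base is counted as 0. Each line runs 5′ to 3′ on the gene's strand.
GMPPB, chr3:49723969-49724055, minus strand: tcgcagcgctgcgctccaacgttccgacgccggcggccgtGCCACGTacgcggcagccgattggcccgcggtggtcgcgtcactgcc
GFPT1, chr2:69387362-69387448, minus strand: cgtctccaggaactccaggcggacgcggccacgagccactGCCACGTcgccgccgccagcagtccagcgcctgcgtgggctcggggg
PGM3, chr6:83193266-83193314, minus strand: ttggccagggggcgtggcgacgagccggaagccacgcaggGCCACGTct
DHDDS, chr1:26432078-26432164, plus strand: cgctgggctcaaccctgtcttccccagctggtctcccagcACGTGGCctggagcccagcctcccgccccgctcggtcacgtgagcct
DHDDS, chr1:26432273-26432321, plus strand: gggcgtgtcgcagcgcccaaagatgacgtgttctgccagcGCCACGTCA
ALG12, chr22:49918514-49918612, minus strand: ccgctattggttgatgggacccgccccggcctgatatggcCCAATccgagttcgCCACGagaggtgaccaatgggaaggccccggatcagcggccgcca

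GCCACGT was present in the promoters of 7 of the 28 genes (ALG1, DHDDS, GFPT1, GMPPB, GNPNAT1, NUS1 and PGM3), and in 3.22% of 35116 promoters of the same length. A gene was counted if any of its promoters matched, and several have more than 1. The percentages are of single promoters, so the counts and percentages are not like measures. For ALG1 and for PGM3 the match lay in only 1 of the gene's promoters. Counted from the start base, its first letter lay at -64 in GMPPB, -181 in GFPT1, -9 in PGM3 and 26 in GNPNAT1. The spaced CCAAT and CCACG pair was found in ALG12 alone of the 28, and in 0.0769% of all promoters. TGACGTGG was found in DHDDS alone, where it overlaps a GCCACGT match, and in 0.729% of all promoters. TTGCATCA, the letters bound by ATF4 with its partners, was in 0 of the 28 and in 0.866% of all promoters, and ATTGG followed 1 base later by CCACG in 0 of the 28 and in 0.0541% of all promoters. These matches describe letters in a window and were not tested as binding sites. Of the genes that carry GCCACGT, GMPPB, GFPT1 and PGM3 were called higher and ALG1 lower with high ERN2 in control cells. With thapsigargin in uninduced cells, DHDDS, GFPT1 and GMPPB were called higher and none of the carriers lower. A link between these letters and the levels was not tested.

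Without stress, high ERN2 raised 2 of 5 genes of GDP-mannose synthesis, 2 of the hexosamine pathway to UDP-GlcNAc and 1 mannosyltransferase, and lowered 2 mannosyltransferases and a dolichol enzyme. At an adjusted p under 0.01 in edgeR, 5 of the 29 rose (GMPPA, GMPPB, GFPT1, PGM3 and ALG2) and 3 fell (ALG1, SRD5A3 and ALG3). Of all 14444 genes tested, 0.838% rose and 7.49% fell, so the falls among the 29 were near the all-gene share. The median log2 fold change of the 29 was 0.003, against -0.007 over all genes. With low ERN2, 1 of the 29 rose (GMPPA) and 0 fell, where 0.138% of all genes rose and 0.0552% fell. Without replicate 1 of the low ERN2 control group it was 11 (6 higher and 5 lower), in a fit that called 8.05% of all genes higher and 10.7% lower. The count dropped to 0 without any 1 uninduced control library or without low ERN2 control replicate 2. Between high and low ERN2, 1 of the 29 fell (ALG1) and 0 rose, where 2.43% of all genes fell and 0.0137% rose. In RNA from whole cultures, fewer cells with a transcript and less of it per cell cannot be told apart. The labels do not say whether the libraries of a group are separate cultures, so the p-values measure the spread between these libraries.

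**Figure D1:**
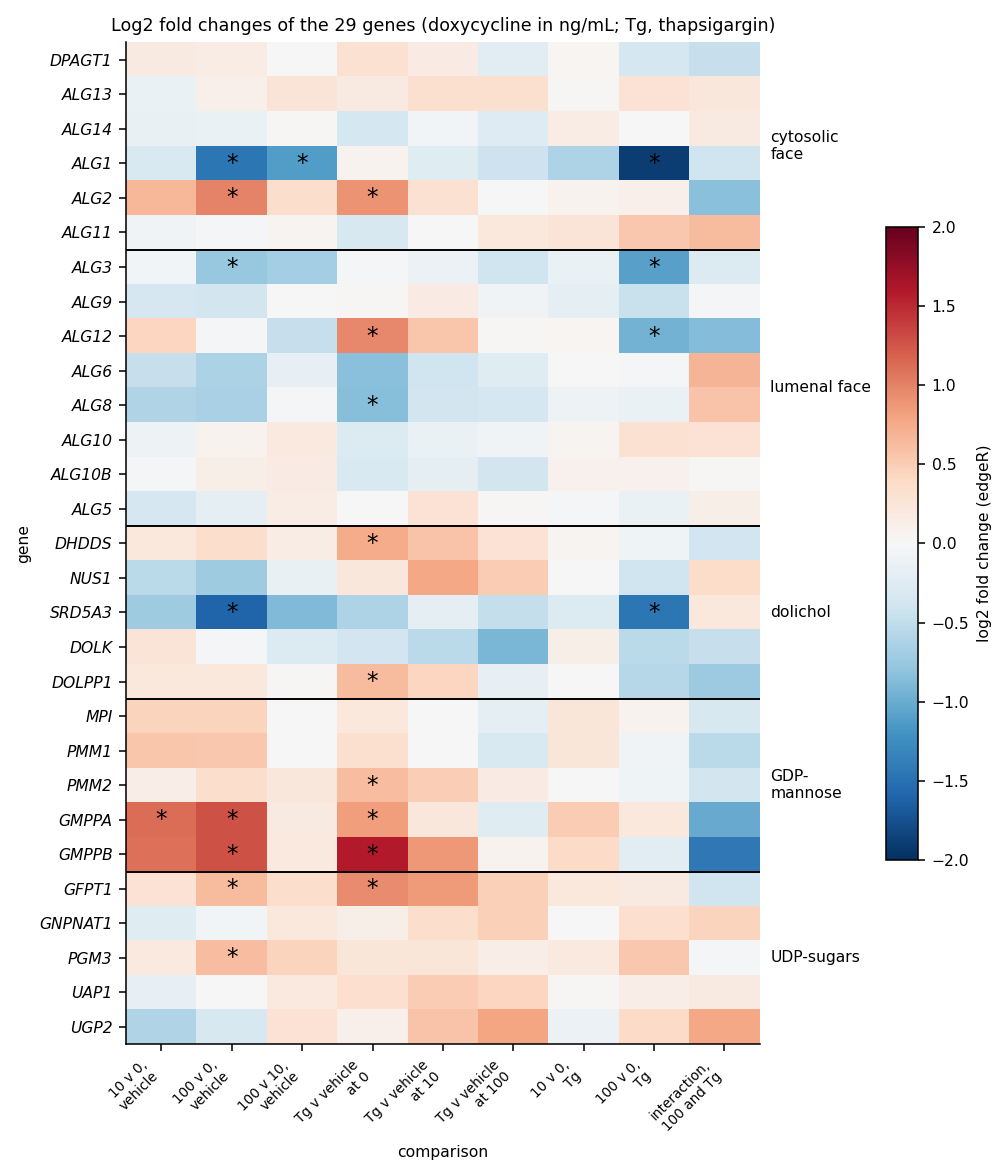
Log2 fold changes (colour) of the 29 genes (rows, by role) in the 9 comparisons (columns), with an asterisk where the adjusted p was under 0.01 in edgeR. GMPPA and GMPPB are the darkest red with high ERN2 in control cells, GMPPB (1.59) with thapsigargin in uninduced cells, and ALG1 and SRD5A3 the darkest blue with high ERN2.

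With thapsigargin and no doxycycline, 8 of the 29 rose (GMPPB, ALG12, GFPT1, ALG2, GMPPA, DHDDS, DOLPP1 and PMM2) and 1 fell (ALG8), where 6.45% of all genes rose and 4.74% fell. The median log2 fold change of the 29 was 0.17, against -0.01 over all genes. Leaving out replicate 1 of the uninduced control group cut the risen genes from 8 to 4 and left 1 lower, with 2.99% of all genes higher and 2.03% lower. This comparison and that of high ERN2 in control cells use the same 3 uninduced control libraries.

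All 5 genes of GDP-mannose synthesis had fold changes above 0 with high ERN2 in control cells and with thapsigargin in uninduced cells. Of the 5, 2 and 3 passed the test, respectively, where 0.838% and 6.45% of all genes rose. GMPPA (chr2:219498867-219506989, plus strand, GRCh38) encodes the regulatory subunit of GDP-mannose pyrophosphorylase. Its levels in uninduced control libraries were 25.1, 24.9 and 26.8 CPM. They were 46.0, 56.9 and 64.1 CPM with low ERN2 and 57.2, 73.3 and 61.0 CPM with high ERN2. Both induced groups lay entirely above the uninduced one and overlapped each other. The log2 fold change was 1.12 ± 0.14 (SE, n = 3 and 3) with low ERN2 (edgeR adjusted p = 0.00527) and 1.28 ± 0.13 with high ERN2 (edgeR adjusted p = 2.47e-05). The call with low ERN2 was lost without any 1 uninduced control library, without low ERN2 control replicate 2 and with all 6 groups in 1 fit. Over all alternatives the log2 fold change ran from 1.001 to 1.23 and the adjusted p up to 0.0481. The difference between high and low ERN2 was 0.17 (95% interval -0.15 to 0.50), which did not pass the test.

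Under thapsigargin, GMPPA was at 35.1, 56.4 and 44.9 CPM without ERN2, 48.3, 75.7 and 71.9 CPM with low ERN2 and 62.7, 52.9 and 43.2 CPM with high ERN2. The uninduced stressed libraries lay above their controls and the high ERN2 stressed libraries overlapped theirs. The thapsigargin response was 0.84 ± 0.16 on the log2 scale without doxycycline (edgeR adjusted p = 0.00228) and -0.25 ± 0.17 with high ERN2 (edgeR adjusted p = 0.371). Without uninduced control replicate 1 the first of these missed the threshold (adjusted p = 0.0138).

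GMPPB (chr3:49716844-49723951, minus strand) encodes the catalytic subunit that joins mannose phosphate to GTP. It was at 18.8, 18.6 and 23.4 CPM in uninduced control libraries, 33.5, 42.7 and 53.9 CPM with low ERN2 and 45.1, 61.3 and 45.1 CPM with high ERN2. Every induced library was above every uninduced one. High ERN2 gave a log2 fold change of 1.28 ± 0.16 (edgeR adjusted p = 0.000113). With low ERN2 it was 1.10 ± 0.17, just outside the threshold in edgeR (edgeR adjusted p = 0.0134). DESeq2 called that rise (DESeq2 adjusted p = 1.38e-06), as did edgeR without the filter (edgeR adjusted p = 1.45e-05).

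Thapsigargin took GMPPB to 49.2, 76.9 and 54.9 CPM in uninduced cells, the largest rise among the 29 genes in that comparison (log2 fold change 1.59 ± 0.17, edgeR adjusted p = 4.37e-05). Stressed libraries held 57.4, 96.6 and 83.3 CPM with low ERN2 and 61.4, 50.1 and 45.6 CPM with high ERN2. The high ERN2 stressed libraries thus overlapped the high ERN2 controls, at a log2 fold change of 0.08 ± 0.18. GMPPB shares 42.3% of its exon bases with AMIGO3 on the same strand, and AMIGO3, looked up after the values were seen, rose with it, by 1.17 with high ERN2 and 1.61 with thapsigargin on the log2 scale. Its part in the GMPPB values was not tested, and how reads in the shared bases were assigned is not given in the sources used here.

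PMM2, which converts mannose 6-phosphate to mannose 1-phosphate, passed the test in 1 comparison. It lies at chr16:8788823-8849331 on the plus strand and was at 33.4, 32.1 and 43.3 CPM in uninduced control libraries and 47.1, 58.0 and 61.5 CPM with thapsigargin. The groups did not overlap, and the log2 fold change was 0.62 ± 0.14 (edgeR adjusted p = 0.00813). The call was lost without uninduced control replicate 1 or 2 or uninduced stressed replicate 2, at adjusted p up to 0.0438. Of the 75-base windows of its transcript 51.5% occur in a second annotated gene, so its count is uncertain. PMM1, its paralogue, had log2 fold changes of 0.56 with low and 0.53 with high ERN2 in control cells, and MPI, which makes mannose 6-phosphate from fructose 6-phosphate, 0.45 and 0.44. Neither passed edgeR's test in any comparison, and DESeq2 called PMM1 higher with high ERN2 in control cells (adjusted p = 0.00977).

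Of the 4 genes of the hexosamine pathway, GFPT1 and PGM3 passed the test with high ERN2 in control cells, where 0.838% of all genes rose. GFPT1 also passed with thapsigargin in uninduced cells, where 6.45% rose. GFPT1 (chr2:69319769-69387254, minus strand) encodes the glutamine-dependent enzyme that commits fructose 6-phosphate to UDP-GlcNAc. It was at 94.8, 119 and 96.5 CPM in uninduced control libraries, 134, 117 and 129 CPM with low ERN2 and 178, 154 and 161 CPM with high ERN2. The high ERN2 libraries lay above all others without stress. The log2 fold change with high ERN2 was 0.63 ± 0.12 (edgeR adjusted p = 0.00250), and it missed the threshold without uninduced control replicate 1 or 3, without high ERN2 control replicate 3 and with all 6 groups in 1 fit (adjusted p up to 0.0365).

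With thapsigargin GFPT1 stood at 171, 271 and 151 CPM in uninduced cells, 205, 297 and 187 CPM with low ERN2 and 195, 243 and 237 CPM with high ERN2. Replicate 2 was the highest of its group at every doxycycline dose. In uninduced cells the log2 fold change was 0.95 ± 0.18 (edgeR adjusted p = 0.00305), and over the alternatives it ran from 0.65 to 1.11, missing the threshold without uninduced control replicate 1 or 3 (adjusted p up to 0.0201). At low and high ERN2 it was 0.85 ± 0.17 and 0.47 ± 0.13, and neither passed the test.

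PGM3 (chr6:83161150-83193936, minus strand) encodes the mutase that moves the phosphate of N-acetylglucosamine. Uninduced control libraries held 128, 158 and 136 CPM, low ERN2 libraries 194, 144 and 145 CPM and high ERN2 libraries 259, 198 and 212 CPM. High ERN2 libraries were above all uninduced ones (log2 fold change 0.62 ± 0.12, edgeR adjusted p = 0.00400). The call was lost without uninduced control replicate 1 or 3, without high ERN2 control replicate 3 and with all 6 groups in 1 fit, with adjusted p up to 0.0588. Thapsigargin libraries were spread widely without doxycycline, at 148, 229 and 116 CPM, and their difference from the controls (0.24 ± 0.19, log2 scale) stayed short of the threshold.

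GNPNAT1 and UAP1, the acetylation and last steps of UDP-GlcNAc synthesis, and UGP2, which makes UDP-glucose, passed edgeR's test in none of the 9 comparisons. UAP1 averaged 105 ± 11.1 CPM (SD, n = 3) in uninduced control libraries and 144 ± 22.6 CPM in high ERN2 stressed libraries. UGP2 had log2 fold changes for thapsigargin of 0.10, 0.57 and 0.79 at no, low and high ERN2.

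**Figure D2:**
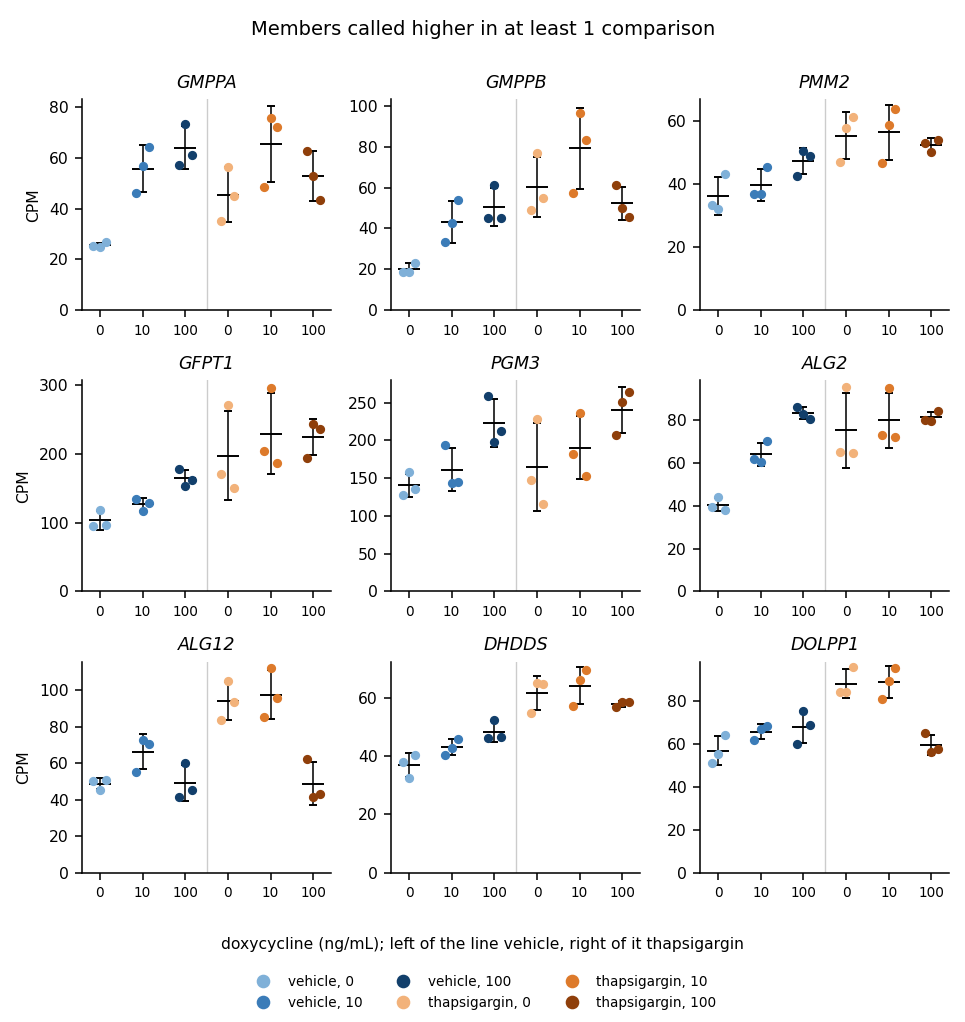
CPM of the 9 genes that rose in at least 1 comparison, by doxycycline dose (x axis, ng/mL) without (blue) and with thapsigargin (orange); points are libraries, bars the mean and SD of 3. GMPPA and GMPPB rise from means of 25.6 and 20.2 CPM in uninduced controls, and DOLPP1 and ALG12 are lower in high ERN2 stressed cells than in the other stressed groups.

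Dolichol genes split by enzyme. SRD5A3 (chr4:55346109-55373096, plus strand), which reduces polyprenol on the way to dolichol, was the member that fell furthest in control cells. It was at 13.5, 15.7 and 13.3 CPM in uninduced libraries, 9.00, 9.38 and 7.72 CPM with low ERN2 and 4.38, 4.94 and 5.00 CPM with high ERN2. None of the 3 groups overlapped. Its log2 fold change with high ERN2 was -1.61 ± 0.16 (edgeR adjusted p = 1.61e-05). With low ERN2 it was -0.71 ± 0.15 (edgeR adjusted p = 0.0552), and from low to high -0.89 ± 0.17 (edgeR adjusted p = 0.0120), both short of the threshold in edgeR and past it in DESeq2 (DESeq2 adjusted p = 0.00414 and 0.000698).

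In stressed cells SRD5A3 was at 10.2, 9.55 and 7.63 CPM without ERN2, 9.24, 8.77 and 4.91 CPM with low ERN2 and 2.13, 3.17 and 4.80 CPM with high ERN2. High ERN2 libraries lay below every uninduced one (log2 fold change -1.45 ± 0.28, edgeR adjusted p = 0.00320). The call was lost without uninduced stressed replicate 1 or 2 or high ERN2 stressed replicate 2 (adjusted p up to 0.0201). Over all alternatives the log2 fold change ran from -1.80 to -1.17.

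DHDDS (chr1:26432282-26471294, plus strand), the catalytic subunit of the enzyme that builds the polyprenol chain, moved with thapsigargin. It went from 38.1, 32.5 and 40.5 CPM to 54.9, 65.2 and 64.8 CPM without doxycycline, with no overlap (log2 fold change 0.74 ± 0.13, edgeR adjusted p = 0.00124). DOLPP1 (chr9:129081100-129090438, plus strand), which recycles dolichyl pyrophosphate, went from 51.1, 55.4 and 64.5 CPM to 84.2, 84.3 and 96.1 CPM (log2 fold change 0.64 ± 0.12, edgeR adjusted p = 0.00236). The DOLPP1 call was lost without uninduced control replicate 1 (adjusted p = 0.0191).

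High ERN2 stressed libraries held DOLPP1 at 65.0, 56.3 and 57.8 CPM, below all uninduced stressed libraries. That difference, -0.56 ± 0.14 on the log2 scale, lay just outside the threshold (edgeR adjusted p = 0.0140). DESeq2 called it (DESeq2 adjusted p = 0.00268), as did edgeR with all 6 groups in 1 fit (edgeR adjusted p = 0.000536). NUS1, the partner of DHDDS, and DOLK, the dolichol kinase, passed edgeR's test in no comparison. DESeq2 called NUS1 lower with high ERN2 in control cells (-0.70, DESeq2 adjusted p = 0.000635). DOLK had log2 fold changes for thapsigargin of -0.38, -0.54 and -0.92 at no, low and high ERN2, and DESeq2 called the last 2 (DESeq2 adjusted p = 0.000955 and 2.91e-05), where edgeR gave adjusted p of 0.0276 and 0.0210.

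Of the 6 genes of assembly on the cytosolic face, 1 rose and 1 fell with high ERN2 in control cells. Of all genes, 0.838% rose and 7.49% fell there. ALG1 (chr16:5033923-5087379, plus strand), which adds the first mannose, fell in 3 comparisons. It was at 25.6, 26.6 and 29.1 CPM in uninduced control libraries, 21.6, 24.8 and 19.3 CPM with low ERN2 and 8.76, 11.5 and 10.4 CPM with high ERN2. The high ERN2 libraries lay far below both other groups. Its log2 fold change was -1.44 ± 0.15 against no ERN2 (edgeR adjusted p = 2.24e-05) and -1.12 ± 0.16 against low ERN2 (edgeR adjusted p = 0.00365). The second call was lost without low ERN2 control replicate 2 or high ERN2 control replicate 1 or 3 (adjusted p up to 0.0309).

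ALG1 kept the order of doses under thapsigargin, at 25.9, 28.3 and 30.5 CPM without ERN2, 21.6, 19.3 and 14.5 CPM with low ERN2 and 9.08, 5.70 and 7.80 CPM with high ERN2. High ERN2 gave a log2 fold change of -1.90 ± 0.20 (edgeR adjusted p = 2.95e-05). Thapsigargin itself gave 0.07 ± 0.12 in uninduced cells, which did not pass the test. ALG1 shares 8.36% of the 75-base windows of its transcript with ALG1L pseudogenes and 22.2% of its exon bases with NAGPA-AS1, whose level was at most 0.650 CPM. On the other strand, EEF2KMT overlaps 20.1% of ALG1's exon bases and NAGPA 1.76%. The part of these 2 genes in the ALG1 values was not tested.

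ALG2 (chr9:99216426-99221956, minus strand), which adds the next mannoses, moved the other way. It was at 39.3, 44.1 and 38.1 CPM in uninduced control libraries, 61.7, 60.3 and 70.3 CPM with low ERN2 and 85.9, 83.0 and 80.5 CPM with high ERN2, with no overlap between the 3 groups. The log2 fold change with high ERN2 was 0.996 ± 0.11 (edgeR adjusted p = 4.61e-05). With low ERN2 it was 0.66 ± 0.12, short of the threshold in edgeR (edgeR adjusted p = 0.0249) and past it in DESeq2 (DESeq2 adjusted p = 0.000183). Thapsigargin raised ALG2 to 65.2, 95.5 and 64.6 CPM in uninduced cells (0.90 ± 0.15 on the log2 scale, edgeR adjusted p = 0.00132). In high ERN2 cells it was at 80.1, 79.6 and 84.1 CPM with thapsigargin, overlapping the controls (log2 fold change -0.01 ± 0.12). DPAGT1, which starts the glycan, its partners ALG13 and ALG14 in the next step, and ALG11 passed edgeR's test in no comparison. ALG11 is uncertain, since 61.2% of its 75-base windows occur in the overlapping gene UTP14C.

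**Figure D3:**
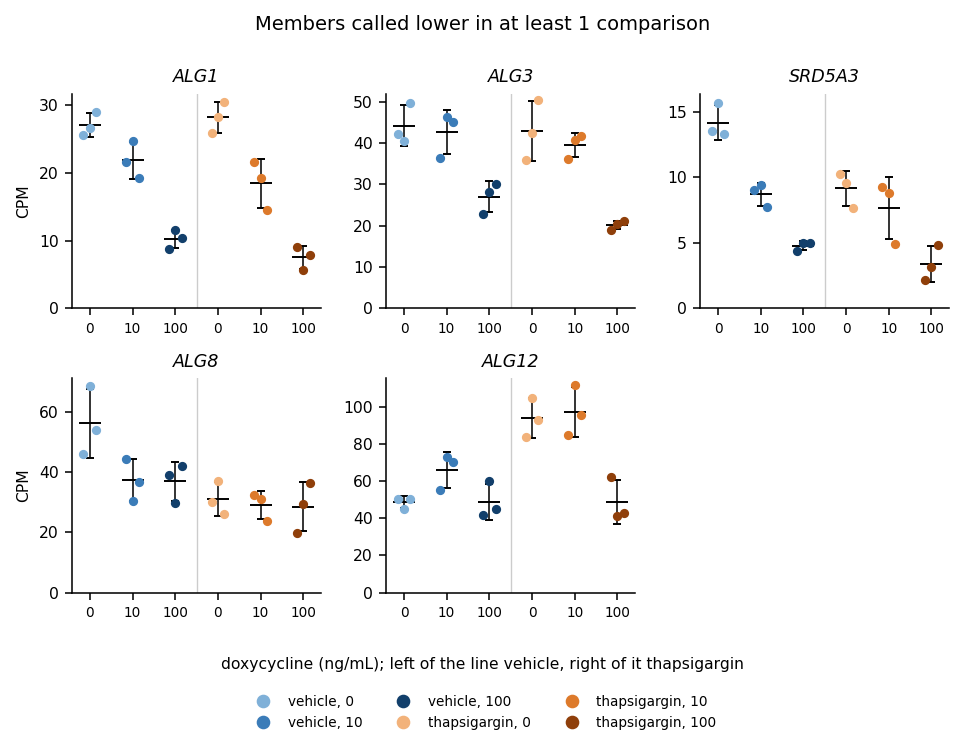
CPM of the 5 genes that fell in at least 1 comparison, by doxycycline dose (x axis, ng/mL) without (blue) and with thapsigargin (orange); points are libraries, bars the mean and SD of 3. ALG1 and SRD5A3 step down with dose in control and in stressed cells, ALG3 drops at 100 ng/mL, ALG8 is lower in every other library than in the 3 uninduced controls, and ALG12 is lower in high ERN2 stressed cells than in the other stressed groups.

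Genes of lumenal-face assembly and of its lipid-linked glucose donor (ALG5) numbered 8. With high ERN2 in control cells 0 of these 8 rose and 1 fell, beside 0.838% and 7.49% of all genes. ALG3 (chr3:184242301-184249548, minus strand), which adds the first lumenal mannose, was at 42.3, 40.5 and 49.9 CPM in uninduced control libraries, 36.5, 46.4 and 45.1 CPM with low ERN2 and 22.9, 28.1 and 30.1 CPM with high ERN2. Only the high dose stood apart. The log2 fold change was -0.75 ± 0.14 (edgeR adjusted p = 0.00274), and the call was lost without uninduced control replicate 3, at an adjusted p of 0.0161. In stressed cells ALG3 was at 35.9, 42.5 and 50.5 CPM without ERN2 and 19.0, 20.3 and 21.1 CPM with high ERN2 (log2 fold change -1.09 ± 0.17, edgeR adjusted p = 0.000530).

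ALG12 (chr22:49900229-49918458, minus strand), a later mannosyltransferase, was at 50.4, 45.1 and 50.7 CPM in uninduced control libraries and 83.8, 105 and 93.2 CPM with thapsigargin. The groups did not overlap (log2 fold change 0.96 ± 0.12, edgeR adjusted p = 0.000134). With high ERN2 the control libraries held 41.6, 60.1 and 45.3 CPM and the stressed ones 62.2, 41.2 and 42.9 CPM, which overlap. High ERN2 lowered ALG12 in stressed cells (log2 fold change -0.95 ± 0.18, edgeR adjusted p = 0.00274) and left it at -0.03 ± 0.15 in control cells. The call in stressed cells was lost without uninduced stressed replicate 2 or high ERN2 stressed replicate 2 (adjusted p up to 0.0257). CRELD2, an ER stress gene looked up after the values were seen, overlaps ALG12 on the other strand over 3.14% of ALG12's exon bases. It moved the same way, by 1.96 with thapsigargin in uninduced cells and -1.03 with high ERN2 in stressed cells on the log2 scale, and its part in the ALG12 values was not tested. A lincRNA, AL671710.1, also overlaps ALG12 on the other strand, over 39.0% of ALG12's exon bases. The kit keeps strand, but whether the counting used it is not given in the sources used here.

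ALG8, a glucosyltransferase at chr11:78100936-78139660 on the minus strand, was the 1 member that edgeR called lower with thapsigargin, in uninduced cells. It went from 46.2, 68.8 and 53.9 CPM to 30.2, 37.1 and 25.97 CPM in uninduced cells, without overlap (log2 fold change -0.84 ± 0.17, edgeR adjusted p = 0.00322). The call was lost without uninduced stressed replicate 1 (adjusted p = 0.0132). ALG6, the glucosyltransferase that acts before it, had a log2 fold change of -0.84 ± 0.22 in the same comparison, which missed the threshold (edgeR adjusted p = 0.0159). SRD5A3 was at -0.62 ± 0.16 there (edgeR adjusted p = 0.0134). DESeq2 called both lower (DESeq2 adjusted p = 0.00186 for ALG6 and 0.00433 for SRD5A3). ALG9, ALG10, ALG10B and ALG5 passed edgeR's test in no comparison. ALG9 shares 90.8% of its 75-base windows with a readthrough gene, and ALG10 and ALG10B are 97.7% identical over their coding bases, so these counts are uncertain.

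The same 29 genes gave 0 calls for thapsigargin at low ERN2, where 1.45% of all genes were called in either direction, and 0 at high ERN2, where 0.201% were. At low ERN2, 12 of the 29 were higher and 2 lower at an unadjusted p under 0.05 in edgeR, against 13.6% and 11.0% of all genes. DESeq2 called 3 higher (DHDDS, GMPPB and GFPT1) and 1 lower (DOLK), and 4.99% and 3.08% of all genes. At high ERN2, 4 were higher and 2 lower at an unadjusted p under 0.05 in edgeR, against 14.6% and 12.3% of all genes. DESeq2 called 0 higher and 1 lower (DOLK) there, and 2.01% and 3.60% of all genes. Without high ERN2 stressed replicate 1, edgeR called 3 members higher and 1 lower at high ERN2, in a fit that called 9.78% of all genes higher and 7.84% lower. Median log2 fold changes of the 29 for thapsigargin were 0.17, 0.22 and -0.08 at no, low and high ERN2, against -0.007, -0.006 and -0.002 over all genes. All 5 UDP-sugar genes stayed above 0 at high ERN2, with a median of 0.47, while the GDP-mannose genes had a median of -0.19.

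The difference between the thapsigargin responses at high and at no ERN2 was tested directly. In edgeR 0 of the 29 passed, where 0.0406% of all genes were called, and 1 was higher and 9 lower at an unadjusted p under 0.05, against 15.6% and 9.15% of all genes. On simulated counts this test recovered 19.6% of genes given a 2-fold difference in edgeR, and 46.5% in DESeq2. GMPPB came nearest, with a difference of -1.43 ± 0.26 on the log2 scale (95% interval -1.99 to -0.87, edgeR adjusted p = 0.0260). GMPPA (-1.001 ± 0.25), ALG2 (-0.83 ± 0.21), ALG12 (-0.86 ± 0.24) and DOLPP1 (-0.72 ± 0.17) followed, with edgeR adjusted p of 0.0601 to 0.0782. DESeq2 called GMPPA, GMPPB, ALG2 and DOLPP1 lower, and 1.64% of all genes. Over the alternatives the adjusted p of GMPPB ran from 3.46e-05 to 0.0923, and without high ERN2 stressed replicate 1 edgeR called 5 members lower and 0 higher, with 2.82% of all genes lower and 5.79% higher. HSPA5 and XBP1 had differences of -1.58 and -2.14, which passed.

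**Figure D4:**
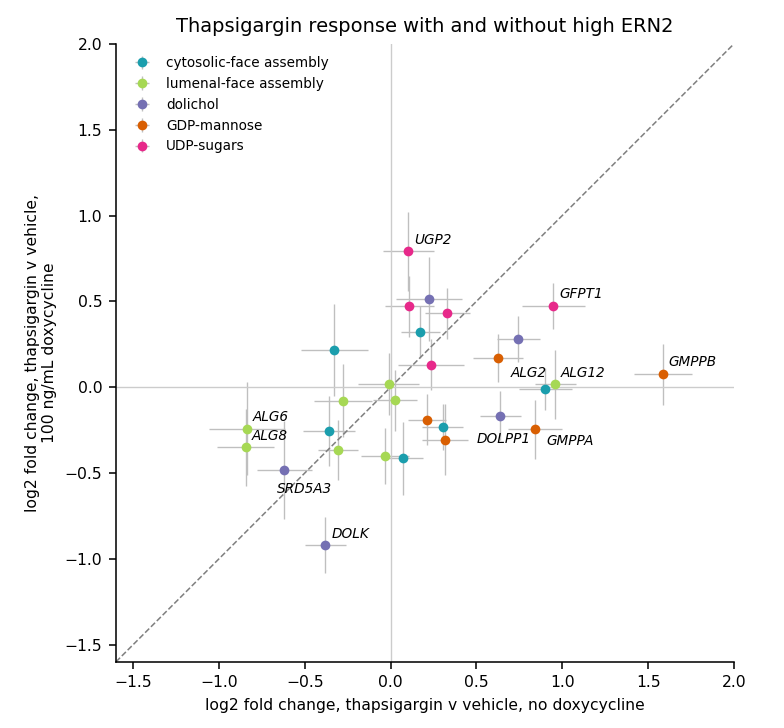
Log2 fold change for thapsigargin without doxycycline (x axis) and with 100 ng/mL (y axis) for the 29 genes, coloured by role; bars are standard errors and the dashed line marks equal responses. GMPPB sits at 1.59 on the x axis and 0.08 on the y axis, and UGP2 lies above the line at 0.10 and 0.79.

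Among stressed cells, high ERN2 lowered 4 of the 29 genes (ALG1, SRD5A3, ALG3 and ALG12) and raised 0, where 9.00% of all genes fell and 1.53% rose. Falls among the 29 were again near the all-gene share. Without high ERN2 stressed replicate 1, 6 were lower and 2 higher, with 13.7% of all genes lower and 13.5% higher. Without high ERN2 stressed replicate 2, 2 were lower, with 5.03% of all genes. All 5 dolichol genes were below 0, with a median log2 fold change of -0.54 against 0.04 over all genes. Of these 5, 1 (SRD5A3) passed the test in edgeR with the groups compared alone. DESeq2 also called DOLPP1 lower. With all 6 groups in 1 fit, edgeR also called DOLPP1 and DOLK lower (edgeR adjusted p = 0.000536 and 0.000907). With low ERN2 in stressed cells 0 of the 29 were called in edgeR, where 0.00% of all genes were, and 2 were higher and 1 lower at an unadjusted p under 0.05, against 1.23% and 2.99% of all genes. DESeq2 also called 0, and 0.339% of all genes. With the replicate number as a block, which pairs these libraries, 2 rose, GMPPA (0.51, edgeR adjusted p = 0.000124) and GMPPB (0.37, edgeR adjusted p = 0.00271), and ALG1 fell (-0.63, edgeR adjusted p = 0.00114). That blocked fit called 1.36% of all genes higher and 2.53% lower.

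Levels between genes were compared per kb of transcript. On the transcript with the longest coding sequence, uninduced control cells held most PGM3 (71.3 ± 7.80 CPM per kb, SD, n = 3) and UAP1 (44.1 ± 4.68), both of the hexosamine pathway. The least was ALG14 (1.32 ± 0.01), followed by ALG11, ALG10B and ALG10 at 2.41 to 3.27 CPM per kb. The order depends on the length used, since per kb of all merged exons PGM3 was at 19.2 and UAP1 at 30.5 CPM per kb. GMPPB ranked 23 and 25 of 29 by these lengths, and SRD5A3 25 and 24.

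CTGCAG, a hexamer known from mRNAs that IRE1 cuts, occurred in the transcripts of 23 of the 29 genes (79.3%), against 82.1% of 18308 coding genes. The median was 0.561 per kb in the 29 and 0.726 per kb over coding genes. Of the genes that fell with high ERN2 in control cells, ALG3 carried 5 copies, ALG1 4 and SRD5A3 2. Of those that rose, GMPPB carried 9, GFPT1 2, GMPPA 1, ALG2 1 and PGM3 0. The match is a description of letters and says nothing of cutting.

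A list of 26 other genes of the pathway held dolichol-mannose, sugar and polyprenol enzymes. High ERN2 in control cells raised 2 of the 26 and lowered 0, beside the 0.838% and 7.49% of all genes, NANS (0.87 ± 0.13 on the log2 scale, edgeR adjusted p = 0.000385), which makes sialic acid phosphate, and UGDH (0.65 ± 0.11, edgeR adjusted p = 0.00144), which makes UDP-glucuronate. Thapsigargin in uninduced cells raised 3 (6.45% of all genes), HK2 (1.15), UGDH (1.01) and NANS (0.76), and lowered 1 (4.74% of all genes), GNPDA1 (-0.62), which runs the hexosamine entry step backward. At low ERN2 it raised 1 (1.16% of all genes), UGDH (0.85). In stressed cells high ERN2 lowered 2 and raised 1, beside 9.00% and 1.53% of all genes. These were FDPS (-0.69), which makes the farnesyl starter of dolichol, and MPDU1 (-0.88), needed for the use of dolichol-linked mannose and glucose, both lower, and FPGT (1.25), of fucose salvage, which was higher. DPM1, DPM2 and DPM3, which make dolichol-phosphate mannose, passed edgeR's test in no comparison.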

How the data were processed

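RNA-Seq was done on 18 libraries (KAPA stranded mRNA kit, 75-cycle single-end reads). The authors deposited whole-number counts of reads per gene from STAR alignment to hg38, per the labels; DESeq2 is also named in the submitters' processing notes. Annotation and counting strand are not given in the sources used here. Replicates were separate columns, and all differed by more than sampling noise (chi-square per degree of freedom 6.99 to 60.2).

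The counts were tested in edgeR 4.0.16 (R 4.3.3, limma 3.58.1) by its quasi-likelihood test with TMM scaling, genes filtered at a minimum count of 10, groups compared alone, and Benjamini-Hochberg adjustment over all genes, called at an adjusted p under 0.01. SE is the log2 fold change over the square root of F. CPM use TMM-scaled totals. Names and positions came from GENCODE 29 (all 29 genes matched). Of the rows, 28 carry dates in place of symbols and were not named. The code was tested on simulated data. The members and lists were chosen with earlier results of these data known. For members called in at least 1 comparison, the plots of CPM by doxycycline dose show every library. For several of these members the text gives the values of only some groups. Alternatives were DESeq2 1.42.0, RLE size factors, no filter, all 6 groups in the fit, a replicate block, an adjusted p of 0.05, and leaving out each library. Same-number correlations of deviations were 0.344 to 0.468 for low against no ERN2 in stressed cells, and only there were libraries taken as paired. In each other comparison the smallest such correlation was 0.083 or less.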

Additional observations from a re-analysis of the deposited data

How the results depend on the processing

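Of 23 results in which a named member passed the test, all 23 kept their call with DESeq2, without the filter and with RLE size factors. At an adjusted p of 0.05 they could not lose it, since they had passed 0.01 in the same fit. With all 6 groups in the fit 3 lost it, with the replicate block 3 (GFPT1, PGM3 and ALG3 with high ERN2 in control cells, adjusted p = 0.0220, 0.0315 and 0.0131 in edgeR), and in 27 of 138 fits that left out 1 library, and none changed direction.

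Counts of called members moved more. With low ERN2 in control cells the count of 1 became 4 with DESeq2, 5 without the filter, 0 with all 6 groups, 2 with the replicate block, 3 at an adjusted p of 0.05, and 0 to 11 when 1 library was left out. With high ERN2 in control cells the 8 became 11 with DESeq2, 10 without the filter and 6 with all 6 groups. It became 5 with the replicate block, 12 at an adjusted p of 0.05, and 5 to 9 with 1 library left out. Between high and low ERN2 in control cells the 1 became 3 with DESeq2, without the filter and at 0.05, 2 with all 6 groups, 6 with the replicate block, and 0 to 2 with 1 library left out. For thapsigargin without doxycycline the 9 became 11 with DESeq2 and without the filter, and 12 with the replicate block and at 0.05. It ranged from 5 to 9 with 1 library left out. At low ERN2 the 0 became 4 with DESeq2 and at 0.05, 2 without the filter, 3 with all 6 groups, 13 (11 higher and 2 lower) with the replicate block, which called 13.4% of all genes higher and 11.4% lower, and 0 to 2 with 1 library left out. At high ERN2 the 0 became 1 with DESeq2, without the filter, with all 6 groups and at 0.05, and 0 to 4 with 1 library left out. For low ERN2 in stressed cells the 0 became 3 with the replicate block. For high ERN2 in stressed cells the 4 became 5 with DESeq2, 6 with all 6 groups and at 0.05, and 2 to 8 with 1 library left out. For the difference of responses the 0 became 4 with DESeq2, 1 without the filter and at 0.05, and 0 to 5 with 1 library left out.

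Several of these alternatives also called more genes over the whole table. With low ERN2 in control cells all-gene calls went from 0.193% to 3.32% with DESeq2 and 18.8% in the fit that gave 11 members. Same-number correlations of deviations were 0.344 to 0.468 for low ERN2 in stressed cells. For thapsigargin without doxycycline they were lower but also all positive (0.083 to 0.274). In each of the other comparisons the smallest was negative. Where a library was left out, its group had fewer samples; otherwise the cause was not tested.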
